A study of Caenorhabditis elegans with 18 samples.

Results

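The regions described here are 744 bins of 20 bp, 0.0710% of the 1048575 bins in the table, at which small RNA reads were at least halved without nrde-3, both in otherwise wild-type embryos and in embryos lacking set-25. They were chosen by measured values. A bin was taken if its mean over the N2 libraries reached 10 scaled reads, if the nrde-3 mean was at most 0.5 of the N2 mean, and if the set-25;nrde-3 mean was at most 0.5 of the set-25 mean. A scaled read is a read count divided by the library's median-of-ratios factor, computed over the 6402 bins with 10 or more reads in all 18 libraries. Of 19863 bins that reached the N2 level, 1822 passed the ratio in the N2 background and 1636 passed it in the set-25 background. The 744 bins that passed both were 40.8% of the former and 45.5% of the latter. Merging bins no more than 1 kb apart gave 151 loci.

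NRDE-3 is an Argonaute protein of somatic nuclear RNA interference. In the cytoplasm it is loaded with secondary small RNAs, which RNA-dependent RNA polymerases copy from targeted transcripts, and the loaded protein moves into the nucleus. There it acts with other NRDE proteins on nascent transcripts and their chromatin, and histone H3 at such targets becomes methylated on lysine 9. In embryos its small RNAs lie downstream of those bound by ERGO-1, another Argonaute. MET-2 is the methyltransferase that adds the first methyl groups to this lysine, and SET-25 is the one that adds the last.

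Small RNA was sequenced from Caenorhabditis elegans embryos taken before the bean stage, in 6 groups of 3 libraries. The groups were wild type N2 (Bristol), nrde-3(tm1116) X, set-25(n5021) III, met-2(n4256) III, met-2(n4256) III with nrde-3(tm1116) X, and set-25(n5021) III with nrde-3(tm1116) X. These alleles are present in every cell and whole embryos were sequenced, so fewer cells of a type and fewer small RNAs per cell cannot be told apart. The growth protocol names 2 biological replicates where 3 libraries are numbered, so p-values cover only the variation among these libraries, which may be technical.

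The table covered chromosome I and the first 5.9 Mb of chromosome II in build ce10, with 1680028 to 4384593 reads per library. The last 13 kb of chromosome I took from 21.0% of these reads (met-2;nrde-3 library 3) to 68.8% (set-25;nrde-3 library 1). Its share was 22.8% to 32.8% in N2, 44.1% to 52.9% in met-2 and 21.0% to 40.8% in met-2;nrde-3. Library totals are therefore no even measure of depth over the other bins. The mutated genes lie on chromosomes III and X, so the genotypes could not be checked here and groups are called as labelled. Libraries 1 and 2 of met-2;nrde-3 had reads in 5.76% and 7.19% of all bins, against 11.3% to 17.9% in the 16 other libraries. They also had no read in 71 and 69 of the 744 member bins, while library 3 had none in 2. At most members the libraries labelled met-2;nrde-3 lay above those labelled met-2, and whether these labels are right was not tested. The annotation at hand was of another build, so gene names and sequences were not used here, and loci are given by ce10 positions and a letter.

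The members were unevenly placed. Chromosome II held 430 of them (57.8%) but only 28.1% of the bins that reached the N2 level, so 7.70% of such bins were members there and 2.20% on chromosome I, where 314 members lay. Between 2 and 3 Mb of chromosome II 147 of 1159 such bins were members (12.7%), and between 3 and 4 Mb 164 of 1144 (14.3%). From 4 Mb on, the share dropped to 0.831% and, past 5 Mb, to 0.833%. On chromosome I the share was highest between 13 and 14 Mb, at 7.44%, and between 11 and 12 Mb, at 6.05%. Bins of one locus are not independent, and 86 of the 111 members between 13 and 14 Mb belonged to a single locus. Likewise, 108 of the 164 members between 3 and 4 Mb of chromosome II lay in 1 run of 7 loci. Counted by locus, 94 lay on chromosome I and 57 on the covered part of chromosome II.

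Members were also clustered at short range. Of the 744 bins, 501 (67.3%) had another member directly beside them. The same share was not computed for the other bins that reached the N2 level, so it is a description only. Loci of 10 or more member bins numbered 17 and held 497 members (66.8%) and 88.2% of the members' N2 level. A further 34 loci held 2 to 9 bins, 147 in all, and 100 loci were 1 bin each. The densest run lay at chrII:3302777-3324096, where 7 loci within 21.3 kb held 108 members and 34.6% of the members' N2 level. The median member stood at 50.8 scaled reads in N2 and the median of the 19119 other bins that reached the N2 level at 21.5.

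Taken over all members, small RNA was most abundant in N2, where the summed scaled reads were 231468, 201043 and 189590 in the 3 libraries. In nrde-3 the sums were 43593, 31182 and 71076, with library 3 above the other two, and those of the set-25 double mutant were 37011, 32701 and 34038. These are the low groups that the choice required. The set-25 sums were 103274, 108645 and 100930, all below N2 and all above nrde-3. The libraries labelled met-2 held 54930, 49955 and 50220, within the range of nrde-3. The libraries labelled met-2;nrde-3 held 160487, 116099 and 139026, above every set-25 library and below every N2 library. As a share of the N2 mean the groups stood at 66.8% ± 10.7 for met-2;nrde-3, 50.3% ± 1.91 for set-25, 24.9% ± 1.35 for met-2, 23.4% ± 9.85 for nrde-3 and 16.7% ± 1.06 for set-25;nrde-3 (SD, n = 3).

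**Figure D1:**
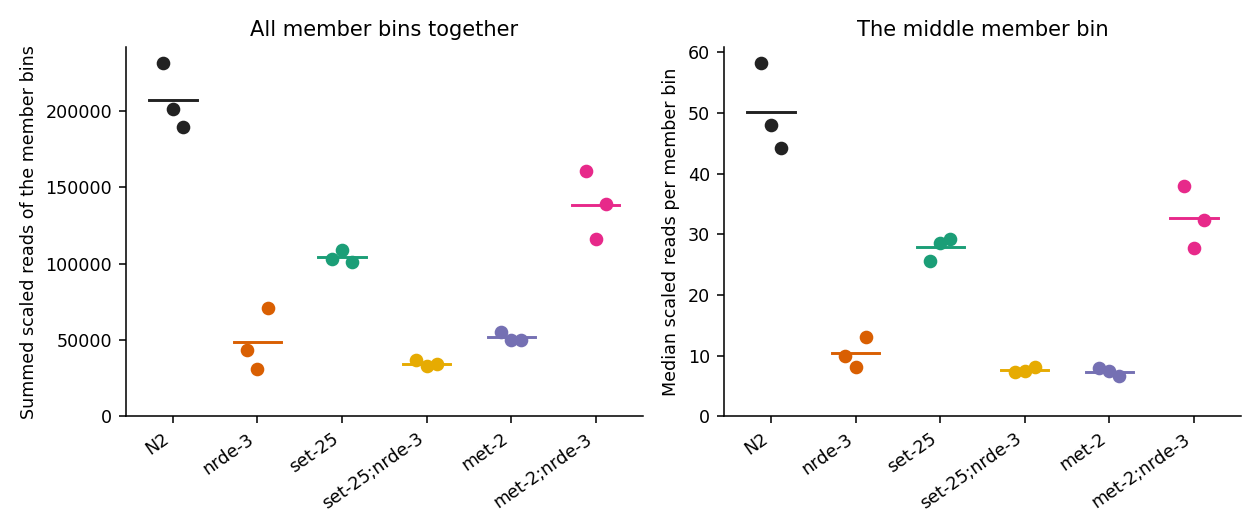
Summed scaled reads of the 744 member bins (left) and the scaled reads of the median member bin (right) in each library; points are libraries and bars are group means. N2 is highest, the libraries labelled met-2 sit with nrde-3 and set-25;nrde-3, and those labelled met-2;nrde-3 sit between 116099 and 160487, above set-25.

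The middle member bin gave a similar order. Its level was 58.2, 47.97 and 44.2 scaled reads in the N2 libraries, 25.7, 28.5 and 29.3 in set-25 and 37.9, 27.8 and 32.3 in met-2;nrde-3. It was 9.95, 8.19 and 13.1 in nrde-3 and 8.02, 7.45 and 6.67 in met-2. The set-25 double mutant gave 7.37, 7.44 and 8.06. By this measure met-2;nrde-3 library 2 lay within the set-25 range, and all 3 met-2 libraries lay below all 3 of nrde-3.

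The falls that chose the members are given as a description only. The median member stood at 0.242 of N2 in nrde-3, and at 0.310 of set-25 in set-25;nrde-3. Just inside the first ratio was the bin at chrII:1447777-1447796, at 0.499, and just outside it the bin at chrI:13411880-13411899, at 0.500053. In the set-25 background the nearest values were 0.499 inside and 0.500126 outside, and the nearest N2 means were 10.006 inside and 9.999 outside. The choice used means and no replicate test. Of the 744 members, 743 passed the filter on low counts, and edgeR called 468 of these (63.0%) lower in nrde-3 than in N2, where it called 1.72% of all 38100 bins tested. Between set-25 and its double mutant it called 356 (47.9%) lower without nrde-3, and 1.19% of all bins. These comparisons chose the bins, so nothing is read from the counts. A set-25 mean below 10 scaled reads was found at 133 members.

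On chromosome I, locus A (chrI:13408580-13412359) was the longest, with 86 member bins in 3780 bp, and the N2 mean reached 10 scaled reads in 136 of its 189 bins. Its member bins held 16796, 14481 and 13845 scaled reads in N2, 6572, 6537 and 5967 in set-25 and 683, 798 and 693 in met-2. In met-2;nrde-3 they held 9849, 6639 and 8138. The met-2 level was 4.82% of N2, below every nrde-3 library, which held 3085, 2356 and 4120. In the 1-kb window with most of its members, chrI:13410020-13411019, the level rose from met-2 to met-2;nrde-3 by 2.93 ± 0.16 on the log2 scale (edgeR, adjusted p = 1.06e-14).

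Locus B (chrI:11824520-11825879) held 47 member bins in 1360 bp, and 98.5% of the N2 reads in its span fell in them. Its levels were 6635, 6407 and 6058 scaled reads in N2, 3891, 4147 and 3617 in set-25, 764, 692 and 650 in met-2 and 5181, 3641 and 4424 in met-2;nrde-3. The met-2 libraries again lay below all of nrde-3, at 1339, 1012 and 2201. Of its 47 bins, 43 were called higher in met-2;nrde-3 than in met-2, and none lower. For this locus and those below, the other bins that reached the N2 level gave 28.3% higher and 21.0% lower.

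Locus C (chrII:310777-313356), near the left tip of chromosome II, had the deepest loss in nrde-3 among the 17 large loci, to 9.82% of N2. It held 43 member bins with 4301, 3611 and 3312 scaled reads in N2. The nrde-3 libraries held 328, 168 and 605. In met-2 it held 66.0, 106 and 88.7, or 2.32% of N2, the lowest share of the 17. In met-2;nrde-3 it held 2243, 1385 and 1812, a change of 4.50 ± 0.29 on the log2 scale at chrII:311017-312016 against met-2 (edgeR, adjusted p = 2.40e-13).

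**Figure D2:**
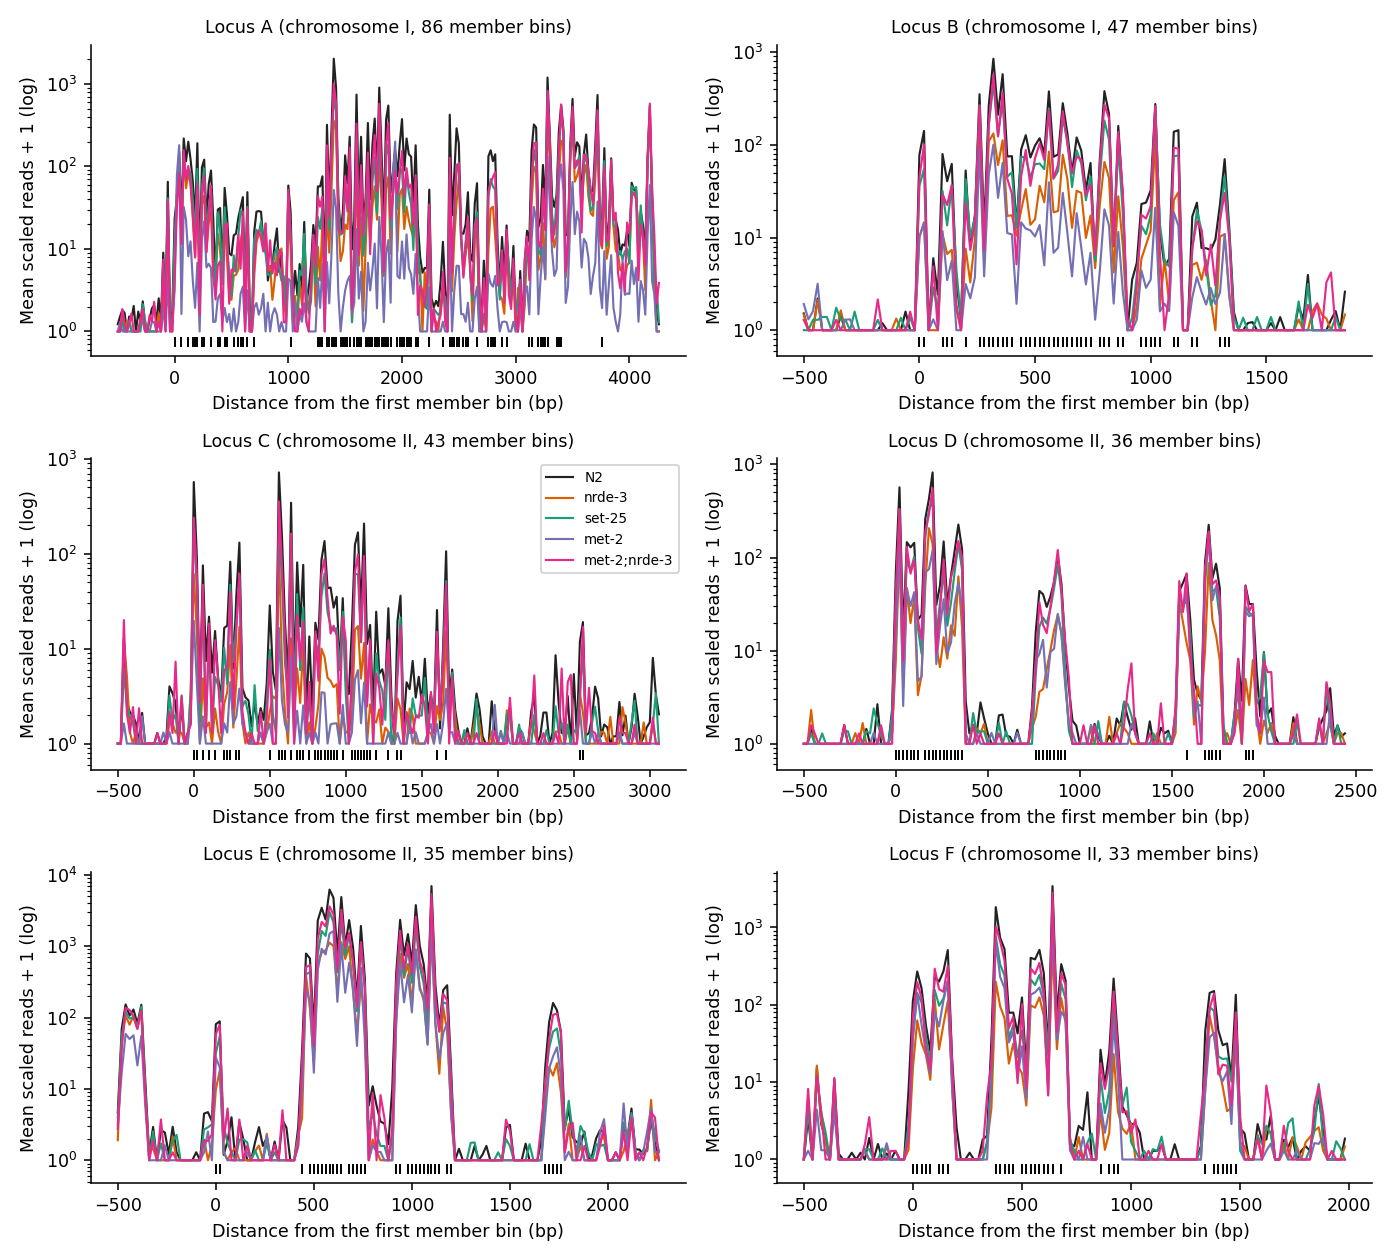
Group means of scaled reads plus 1 on a log axis along the 6 loci with the most member bins, against distance from the first member bin in bp; black ticks mark member bins. In all 6 loci the bins that reached the N2 level lie in separate blocks, from 4 in B, E and F to 9 in A. Most high peaks keep their places in the groups drawn while their heights differ.

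The run near 3.3 Mb of chromosome II held loci F, E and J in order along the chromosome. Bins that reached the N2 level fell in separate blocks there, as at every other named locus but M, which formed 1 block. Locus E (chrII:3305717-3307496) was the most abundant of all, with 35 member bins at 56598, 48217 and 44782 scaled reads in N2. Bins that reached the N2 level formed 4 blocks of 40 to 340 bp in its 1780 bp. In met-2 it held 13704, 12141 and 12453, which overlapped nrde-3 at 10883, 7318 and 18892, and in met-2;nrde-3 it held 37180, 27706 and 34809. The change between the last groups was 1.42 ± 0.19 on the log2 scale at chrII:3306017-3307016 (edgeR, adjusted p = 3.33e-07). Locus F (chrII:3302777-3304276) stood at 34.0% of N2 in met-2, above all nrde-3 libraries, and at 71.7% in met-2;nrde-3. Locus J (chrII:3309197-3311376) stood at 36.3% and 61.2%. Of its 26 bins, 9 were called higher in met-2;nrde-3 than in met-2, against 28.3% of the other bins that reached the N2 level.

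Next in abundance was locus G (chrII:1820257-1821376), whose 31 member bins held 35251, 32443 and 32516 scaled reads in N2 and 31368, 23059 and 23617 in met-2;nrde-3. Its met-2 level of 7421, 7820 and 7665 lay within the nrde-3 range, and 29 of its 31 bins were called higher in met-2;nrde-3. It also kept the most reads in met-2;nrde-3 among the 17 large loci, at 77.9% of N2. Loci L (chrII:2091557-2092116) and M (chrII:2094497-2095076) lay within 3.52 kb of each other and held 19 and 21 member bins. In met-2 they stood at 25.1% and 17.1% of N2, and in met-2;nrde-3 at 74.4% and 67.8%. Locus H (chrII:2136417-2137336) held 28 member bins, of which 27 were tested and 26 were called higher in met-2;nrde-3 than in met-2.

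Among the remaining named loci, D (chrII:2501877-2503836) and K (chrII:3373277-3374976) differed in how low they stood in met-2, at 28.8% and 9.32% of N2. All 3 met-2 libraries lay below all 3 of nrde-3 at K and overlapped them at D. Locus N (chrII:2996397-2997076) was concentrated, since its last bin, chrII:2997057-2997076, carried 85.2% of the locus level and was the most abundant member of all. That bin held 10270, 9088 and 8293 scaled reads in N2, 1405, 973 and 3071 in nrde-3, 802, 697 and 655 in met-2 and 4344, 3198 and 4954 in met-2;nrde-3. The 4 next most abundant members, between 6674 and 7095 scaled reads in N2, lay in locus G, which had 3 of them, and locus E.

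Loci P and Q stood highest in met-2 relative to N2 among the named loci. Locus P (chrII:2681457-2681776) stood at 59.7% of N2 in met-2, the highest share among the 17 large loci, and held 3773, 3274 and 3525 scaled reads there against 5264, 3872 and 4321 in met-2;nrde-3. The libraries did not overlap, and 2 of its 12 bins were called higher, against 28.3% of the other bins that reached the N2 level. The window at chrII:2681017-2682016 rose by 0.42 ± 0.14 on the log2 scale (edgeR, adjusted p = 0.0203). Locus Q (chrII:3290597-3291656), with 8 member bins, held 3757, 3270 and 3077 in N2, 677, 517 and 1165 in nrde-3 and 4658, 3778 and 3888 in met-2. All met-2 libraries therefore lay above all N2 libraries. In met-2;nrde-3 it held 2356, 1885 and 2309, and the window at chrII:3291017-3292016 fell from met-2 by 0.91 ± 0.16 on the log2 scale (edgeR, adjusted p = 2.94e-05). Of its 8 bins, 5 were called lower and 2 higher.

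**Figure D3:**
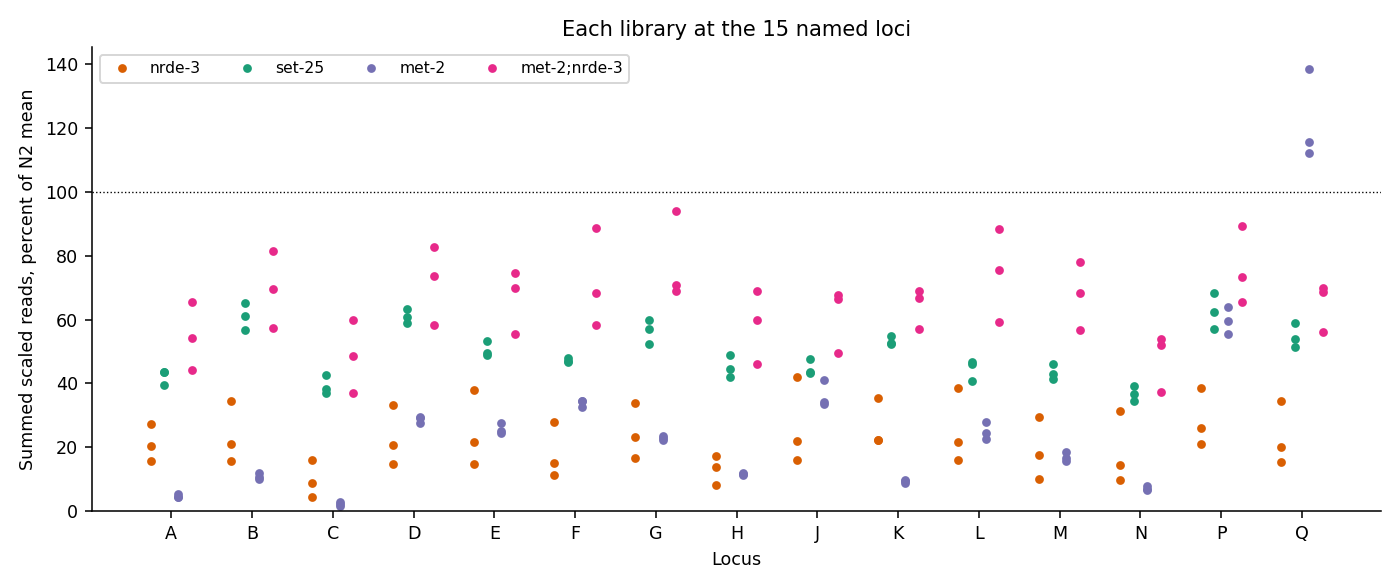
Summed scaled reads of the member bins of the 15 named loci in each library, as a percent of the locus's N2 mean, for nrde-3, set-25, met-2 and met-2;nrde-3. The dotted line is the N2 mean; met-2 points are lowest at A, B, C, K and N and exceed the line only at Q.

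The met-2 and met-2;nrde-3 libraries did not enter the group means that chose the members. All 18 libraries did enter the rule's scaling factors, and the edgeR fit shared its estimate of spread, scaling and filter across them. The comparison of met-2;nrde-3 with met-2 asks how the same bins respond when nrde-3 is lost where met-2 is already lost. Here 501 of the 743 members tested (67.4%) were called higher in met-2;nrde-3, against 21.6% of all 38100 bins tested. Only 25 (3.37%) were called lower, against 18.9% of all bins. The median log2 fold change was 1.94 over the members and -0.03 over all bins tested. All 3 met-2;nrde-3 libraries lay above all 3 met-2 libraries at 492 of the 744 members and below them at 26, or 66.1% and 3.495%. Among the 19119 other bins that reached the N2 level the shares were 29.0% and 20.9%. With the sparser libraries 1 and 2 of met-2;nrde-3 left out, 503 members were called higher and 17 lower, against 15.6% and 9.27% of the 55626 bins tested in that fit, the lone library being assumed to vary like the other groups.

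**Figure D4:**
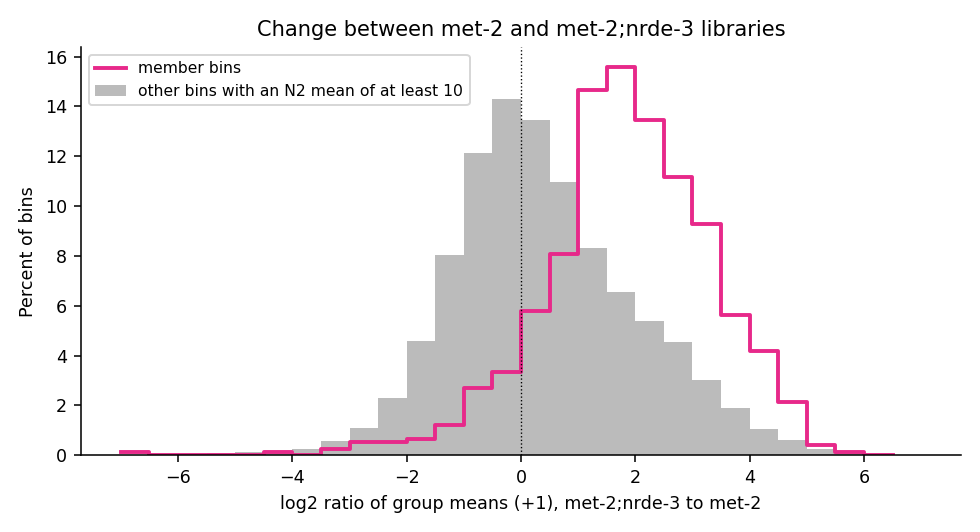
Distribution of the log2 ratio of met-2;nrde-3 to met-2 group means (plus 1 scaled read) for the 744 members (line) and the 19119 other bins with an N2 mean of at least 10 (bars), in percent of bins. The members centre on a median of 1.90 and the others on 0.22.

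Windows of 1 kb gave fewer dependent units. The members lay in 198 windows, of which 125 (63.1%) were called higher in met-2;nrde-3 than in met-2, against 24.1% of the 10730 windows tested. Windows called lower numbered 29 (14.6%), against 18.9%, so the shortfall of lower calls seen over the bins was smaller over the windows, which also hold bins that are not members. Library totals include the uneven share of the last 13 kb of chromosome I. Scaling by these totals alone gave 137 windows higher and 12 lower, where 31.8% and 5.85% of all windows were called. It gave 590 member bins higher and 10 lower, where 30.3% and 9.90% of all bins were called, with the median log2 ratio over the other bins that reached the N2 level at 0.68 in place of 0.22. TMM factors put that median at 0.07.

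Most of the called bins lay in large loci. In the 17 loci of 10 or more bins, 385 of 496 bins tested were called higher (77.6%) and 1 lower. In loci of 2 to 9 bins, 95 of 147 were higher (64.6%) and 10 lower. Of the 100 bins that formed a locus alone, 21 were higher and 14 lower, where the other bins that reached the N2 level gave 28.3% and 21.0%, and their median log2 fold change was 0.50. Bins that passed the ratio in a single background were not members. Among 1075 tested that passed only in the N2 background, 31.7% were higher and 16.7% lower, and among 891 that passed only in the set-25 background, 35.7% were higher and 12.6% lower. Differences between these classes were not tested. By N2 level, the median log2 ratio of met-2;nrde-3 to met-2 was 1.52 in the 248 members with the lowest means, 2.29 in the middle 248 and 1.88 in the highest 248.

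The largest rises from met-2 to met-2;nrde-3 were at windows nearly empty in met-2. At chrI:842001-843000 the window held 259, 270.5 and 265 scaled reads in N2, 3.56, 0.00 and 0.953 in met-2 and 250.0, 249 and 230 in met-2;nrde-3, a log2 fold change of 7.22 ± 0.29 (edgeR, adjusted p = 8.00e-18). A neighbour at chrI:844001-845000 rose by 4.67 ± 0.22. Both held 1 member bin, and as whole windows their nrde-3 means were 204 and 218, against 264.8 and 285 in N2. On chromosome II adjoining windows at chrII:2924017-2925016 and chrII:2925017-2926016, with 4 member bins each, rose by 5.23 ± 0.15 and 5.08 ± 0.27. The first held 616, 654 and 695 in N2, 20.5, 13.97 and 17.2 in met-2 and 647, 654 and 606 in met-2;nrde-3. All 9 member bins of the locus there, chrII:2923937-2925916, held 180, 226 and 233 in N2. Most of the N2 level of the first window therefore lay outside the members. The fifth, chrII:2996017-2997016, held part of locus N and rose by 4.63 ± 0.28.

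The largest falls were at windows where met-2 stood far above every other group. At chrI:5299001-5300000 the window held 123, 124 and 129 scaled reads in N2, 9844, 9734 and 8946 in met-2 and 69.0, 105 and 109 in met-2;nrde-3, a log2 fold change of -6.59 ± 0.15 (edgeR, adjusted p = 1.60e-22). The window at chrI:5985001-5986000, with means of 406.5 in N2 and 7092 in met-2, changed by -4.36 ± 0.13. Adjoining windows at chrII:3968017-3969016 and chrII:3969017-3970016 changed by -3.64 ± 0.15 and -2.27 ± 0.14. At chrI:5876001-5877000 the change was -2.05 ± 0.37 (edgeR, adjusted p = 4.43e-05), with met-2;nrde-3 library 1 at 140 and libraries 2 and 3 at 29.9 and 38.5. Of the 5 windows, 4 held 1 member bin and 1 held 2. The member bin had a met-2 mean of 423 in the window at chrI:5299001-5300000 and of 56.6 in that at chrI:5985001-5986000. Most of the met-2 level in both windows therefore lay outside the members.

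Against N2, met-2 was lower at most members. The N2 libraries took part in choosing the bins, partly for being high, so these values are descriptions. The median log2 ratio of met-2 to N2 was -2.60 over the members and -0.33 over the other bins that reached the N2 level. Of 743 members, 615 (82.8%) were called lower and 11 (1.48%) higher, against 22.3% and 14.7% of all bins tested. By locus, met-2 ranged from 0 to 2846% of N2 with a median of 33.4%, and from 2.32% to 59.7% in the 17 large loci. The highest value belonged to the single bin at chrI:5299281-5299300, with means of 14.9 in N2 and 423 in met-2. All 3 met-2 libraries lay below all 3 of N2 at 99 of 151 loci, among them all 17 large ones, while 29.4% of 10031 1-kb windows did so.

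Against nrde-3, which was chosen to be low at these bins, the met-2 values are likewise a description, and nothing is read from their counts. At 39 of 151 loci all 3 met-2 libraries lay below all 3 of nrde-3, at 37 above, and at 75 they overlapped. Of windows, 25.3% lay below and 27.8% above. Of the 17 large loci, 6 were lower in met-2 and 2 were higher. The loci that were lower included A, B, C and K, and the loci that were higher were F and P.

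Levels in met-2;nrde-3 were also set beside N2, chosen to be high, and nrde-3, chosen to be low. The choice favours the first comparison being lower and the second being higher, so these values are descriptions. The median log2 ratio to N2 was -0.64 over the members and -0.10 over the other bins, and 67 members (9.02%) were called lower, against 0.963% of all bins. No member was called higher by edgeR, against 117 of all 38100 bins tested, and 1 was higher at an unadjusted p below 0.05. All 3 met-2;nrde-3 libraries lay below all 3 of N2 at 59 of 151 loci, against 12.3% of windows, and at 16 of the 17 large loci, L being the exception. At F the groups almost touched, with the highest met-2;nrde-3 library at 9783.72 and the lowest N2 library at 9783.75. All 3 met-2;nrde-3 libraries lay above all 3 of nrde-3 at 57 of 151 loci, against 10.9% of windows, and at all 17 large loci. In those 17 the level ranged from 48.5% to 77.9% of N2. Against met-2 by locus, all 3 libraries were higher at 64 of 151 loci and lower at 16, and they were higher at all 17 large loci. Of windows, 23.5% and 24.7% were higher and lower.

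Loss of set-25 alone was accompanied by lower levels at many members. Both groups took part in the choice, which required set-25 to exceed its double mutant and N2 to exceed nrde-3. The median log2 ratio of set-25 to N2 was -0.85 over the members and -0.10 over the other bins. Bins called lower numbered 176 (23.7%), against 1.08% of all bins. None was called higher, against 487 of all 38100 bins tested, and 2 were higher at an unadjusted edgeR p below 0.05. All 3 set-25 libraries lay below all 3 of N2 at 55 of 151 loci, against 12.1% of windows, and at all 17 large loci. There the level ranged from 37.7% to 70.3% of N2. By N2 level, the median log2 ratio was -1.02 in the highest 248 members, -0.89 in the middle 248 and -0.50 in the lowest 248. N2 both sorted the members and divided the ratio, and the pseudocount shrinks ratios most at low means. This order was not tested.

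Profiles along the loci were compared as a description. Across the 89 bins of locus E, the log2 level in N2 correlated with that in nrde-3 at r = 0.980, in met-2 at 0.985 and in met-2;nrde-3 at 0.990. In locus C, across 129 bins, the values were 0.875, 0.783 and 0.927. These bins share libraries, depth and neighbouring sequence.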

How the data were processed

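The values deposited by the authors are read counts per library in bins of 20 bp. Per the authors' series text, the FASTX-Toolkit served for adapter clipping and for collapsing of reads, and QuasR for alignment to WS220 (ce10), with versions not given in the sources used here. The series text also describes normalisation to all reads, which the whole numbers do not show, so they were taken as unscaled counts. It describes a selection by length too, and whether the table holds all lengths was not tested. Reads of 50 bases came from TAP-treated small RNA of embryos, collected 60 to 65 h after the worm cultures were synchronised as L1 larvae. TAP leaves 5′ ends that accept an adapter, so RNAs with triphosphates are included.

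The columns named wt were taken as N2. Scaling, choice and merging were done in Python 3.11.15 with numpy 2.4.6 and pandas 2.3.3, and figures with matplotlib 3.10.9. Log2 ratios of group means used a pseudocount of 1 scaled read. Tests used one edgeR 4.0.16 model over all 18 libraries (R 4.3.3) with a coefficient per group, filterByExpr with a minimum count of 10, TMM factors and glmQLFTest, with Benjamini-Hochberg adjustment over all features tested and a threshold of 0.05. SEs were derived from the log2 fold change and its F statistic. The functions were tested on simulated data. Counting gives limited precision at low bins.

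Named loci are the 10 with the most member bins (A to H, J and K) and the 5 others with the highest N2 sum (L, M, N, P and Q), and named windows are the 5 largest rises and 5 largest falls between met-2 and met-2;nrde-3 among member windows past the threshold with no overlap of libraries. Non-overlap shares given for windows refer to 1-kb windows with a mean of at least 10 scaled reads in any group, summed over all their bins. Locus values sum member bins only, which had to reach that level in N2, so loci and windows are unlike units. Members, lists and tests were chosen with earlier results of these data known. Alternatives were other scalings, thresholds, filters, DESeq2 1.42.0, voom weights (limma 3.58.1), a replicate block and left-out libraries.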

Additional observations from a re-analysis of the deposited data

Results flagged for a closer look

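With the libraries as labelled, the members changed in opposite directions between backgrounds on loss of nrde-3. The median log2 change was 1.90 in the met-2 background, where every met-2;nrde-3 library stood above every met-2 library at the median member. It was -1.56 in the set-25 background, where every set-25;nrde-3 library stood below every set-25 library, a difference of 3.46. The fall in the set-25 background was fixed by how the bins were chosen, and the difference was not tested. Whether the labels met-2 and met-2;nrde-3 are right was not tested either, and with these labels exchanged the value in the met-2 background would change sign, to the direction seen in the set-25 and N2 backgrounds, which the choice fixed.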

How the results depend on the processing

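Of 108 alternative values, 93 stayed within 1.5 times the main count or within 1 SD between libraries, and 15 moved. No median log2 ratio changed sign, while counts were not labelled by direction. Allowing ratios of up to 0.6 gave 1139 bins, and scaling without the last 13 kb of chromosome I gave 724. Leaving out single libraries of the 4 groups gave 705 to 832 bins, and the 832 without nrde-3 library 3 included 728 of the 744. Library totals alone gave 10 member bins and 12 member windows lower in met-2;nrde-3 than in met-2, and medians of 2.34 (met-2;nrde-3 to met-2), -3.07 (met-2 to N2) and -1.43 (set-25 to N2), with the other bins at 0.68, -0.80 and -0.67. A pseudocount of 5 gave 1.41, -1.95 and -0.74. With no filter, 426 of 744 members were higher and 16 lower, against 1.45% and 1.36% of all bins. A minimum count 10 times higher left 300 members tested, of which 265 were higher and 8 lower, against 39.5% and 37.2%. Only the groups compared in the fit gave 392 of 520 members tested higher and 15 lower, against 20.6% and 21.5%. Leaving the last 13 kb of chromosome I out of the fit gave 503 of 709 members tested higher and 23 lower, against 24.1% and 20.6%. The median of set-25 to N2 ranged from -0.92 to -0.73 as single libraries were left out. Causes were otherwise not tested. Replicate numbers did not pair the libraries: deviations from the group means had a median r of -0.0126 for equal numbers and -0.00144 for unequal ones. The replicate block gave 494 members higher and 25 lower, where 20.5% and 18.4% of all bins were called. It gave 125 and 29 windows, where 23.3% and 18.3% of all windows were called. DESeq2 gave 508 and 25 members, where 21.9% and 19.9% of all bins were called. Depth limits most the bins near 10 scaled reads.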
